A study of Equus caballus with 10 samples.

Results

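The genes described here encode zinc transporters, and 10 were named by their symbols: the importers SLC39A8, SLC39A14, SLC39A6, SLC39A10, SLC39A13 and SLC39A1 and the exporters SLC30A1, SLC30A2, SLC30A4 and SLC30A7. Of these 10 genes, 9 were found among the 29196 genes of the expression table, and SLC39A14 was not analysed here. Of the 9, 8 had reads in 5 or more of the 10 libraries and were tested, and SLC30A2 was not. RNA was sequenced from primary tenocytes of 5 adult Thoroughbred or Thoroughbred-type horses, isolated from the superficial digital flexor tendon after death. The cells were passaged on plastic and then kept for 14 days in gels of bovine collagen. The gels of the PF group (5 libraries) received PF-06650833, an inhibitor of the IL-1 receptor kinase IRAK-4, at 100 nM every day, without IL-1β. Those of the PF + IL-1β group (5 libraries) had the same daily inhibitor and, at each change of medium every 3 to 4 days, 17 ng/ml of IL-1β. Each donor gave 1 library to each group. Since the inhibitor is in both groups, the comparison shows the difference made by IL-1β in its presence, and cultures without the inhibitor were not analysed here.

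Zinc is moved across membranes by transporters of the SLC39 family, called ZIP, and of the SLC30 family, called ZnT. ZIP proteins carry zinc into the cytosol from outside the cell or from organelles, and ZnT proteins carry it out of the cytosol, into the surroundings or into vesicles and the Golgi. Zinc is needed by matrix-degrading enzymes such as the matrix metalloproteinases, and also by alkaline phosphatase. Loss of the ZIP encoded by SLC39A13 causes a connective tissue disorder of the Ehlers-Danlos type. Inflammatory cytokines are known to change ZIP and ZnT expression in several cell types, with SLC39A8 and SLC39A14 as the best-known examples.

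Expression is given as variance-stabilized log2 values, on which a gene with 0 reads lies at 3.433. Estimated reads per library were between 26401972 and 35747519 in PF and between 26708240 and 33395191 in PF + IL-1β. Of 12 tendon cell markers 11 had a row and 10 had reads, while TNMD, a late tendon marker, was at 0 reads in all 10 libraries. The summed level of these markers was 19.8 to 20.5 in PF and 17.9 to 19.97 in PF + IL-1β, as log2 of the summed normalized counts + 1. COL1A1, COL1A2 and DCN made up most of this sum. On the same scale the summed levels were 7.79 to 10.9 and 8.43 to 11.1 for 8 leukocyte markers, 2.97 to 5.55 and 2.29 to 4.93 for 5 endothelial markers, 10.3 to 15.1 and 11.9 to 13.6 for 4 mural and muscle markers, and 9.06 to 10.6 and 5.46 to 8.79 for 4 epithelial markers. AIF1, CD3E, EPCAM, KRT5 and MYOD1 were at 0 reads in all libraries. PTPRC, which marks all leukocytes, was above 0 reads in 1 library, and the epithelial level was almost entirely CDH1. Of the 10 tested tendon cell markers, 3 (SCX, MKX and COMP) were lower in PF + IL-1β by limma (adjusted p below 0.05 and a log2 fold change of at least 1 in size) and 0 were higher, where 6.68% of all tested genes passed in either direction. With the donor as a replicate block 5 were lower, COL1A1 and COL1A2 in addition, where 8.26% of all tested genes passed. Not all tendon cell markers went down. DCN (log2 fold change 1.01, higher in 5 of 5 donors) and PDGFRA (0.46) were above 0 and passed in neither fit, with the other 8 below 0. Among the markers of other cell types, CD68 was higher (log2 fold change 1.70) and DES (-2.98), RGS5 (-1.96) and CDH1 (-2.22) were lower in PF + IL-1β. The leukocyte marker CD14 did not pass and had 1466, 231, 0, 0 and 0 estimated reads in donors 1 to 5 in PF. In PF + IL-1β it had 1357, 619, 0, 289 and 1041. MYH11, most of the mural and muscle sum, did not pass either, being lower in 4 donors and higher by 2.53 in donor 3. The part of these genes in the results on zinc transporters was not tested. In such bulk libraries, fewer cells of a type and less RNA per cell cannot be told apart.

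In PF + IL-1β, SLC30A7 was higher than in PF, by 1.62-fold (95% confidence interval 1.31 to 2.01, n = 5 donors), and it was the only zinc transporter of the 8 tested that passed an adjusted p below 0.05 in the fit without a donor term. At that threshold this fit called 15.5% of all 17992 tested genes, and 7.57% as higher. No zinc transporter (0 of 8) also reached a log2 fold change of 1 or more in either direction, which the study asks of differentially expressed genes and which 6.68% of all tested genes did in limma. At an unadjusted p below 0.05 there were 5 of 8, against 29.7% of all tested genes. When the donor was added to the fit as a replicate block, SLC30A7, SLC30A1 and SLC39A1 were higher and SLC39A13 was lower, 4 of 8 at an adjusted p below 0.05, against 22.2% of all tested genes (10.9% higher and 11.3% lower), and again 0 of 8 with the minimum fold change, against 8.26%. Of those 4 genes, SLC30A1, SLC39A1 and SLC39A13 had adjusted p-values between 0.0456 and 0.0493, close to the threshold. When 1 donor was left out of the fit with the block, the number fell to between 0 and 2, with 0 without donor 2 and 0 without donor 5. The share of all tested genes passing in these smaller fits was not counted. Whether the fall is particular to the zinc transporters therefore cannot be told.

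The log2 fold changes of the 8 tested zinc transporters had a median of 0.26, against -0.0063 for all tested genes. They were above 0 for 6 of the 8, against 49.3% of all tested genes. SLC39A8, with at most 5 estimated reads per library, is counted among the 6 and in the median. In 3 of the 8 genes all 5 donors changed in the same direction, against 32.7% of all tested genes, and in 1 of the 8 the groups did not overlap, against 12.7%. The largest difference between the group means was that of SLC30A1, 0.76 on the log2 scale.

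SLC30A7 encodes ZnT7, which loads zinc into the Golgi for enzymes of the secretory pathway. Its log2 expression in donors 1 to 5 was 9.85, 9.51, 10.09, 10.03 and 9.69 in PF. It was 10.37, 10.68, 10.25, 10.62 and 10.75 in PF + IL-1β. The lowest library with IL-1β lay above the highest library without it, so the groups did not overlap. The means were 9.83 ± 0.24 (SD, n = 5) and 10.53 ± 0.22 (SD, n = 5), and the log2 fold change was 0.70 (standard error 0.14, 95% confidence interval 0.39 to 1.00, adjusted p = 0.00738 from limma, and 0.0163 with the replicate block). SLC30A7 was higher in 5 of 5 donors, by between 0.16 in donor 3 and 1.16 in donor 2. The values rest on 530 to 943 estimated reads in PF and on 1030 to 1458 in PF + IL-1β. Without donor 5 the log2 fold change was 0.61 and the adjusted p 0.0504 from limma, just above the threshold.

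SLC30A1 encodes ZnT1, the zinc exporter of the plasma membrane, whose transcription is known to be raised by zinc through the metal sensor MTF1. In PF its log2 expression in donors 1 to 5 was 11.74, 12.21, 12.87, 11.67 and 11.39. In PF + IL-1β it was 12.72, 12.82, 12.86, 13.44 and 11.87. The groups overlapped, with donor 3 high in both groups and donor 5 the lowest in both. SLC30A1 was higher in 4 of 5 donors, with differences from -0.01 in donor 3 to 1.77 in donor 4, the widest spread among the exporters. The means were 11.98 ± 0.58 (SD, n = 5) and 12.74 ± 0.56 (SD, n = 5), and the log2 fold change was 0.76 (standard error 0.31, 95% confidence interval 0.08 to 1.45), which did not pass without the donor term (adjusted p = 0.127 from limma). With the replicate block the standard error was 0.22 and the adjusted p was 0.0460. In limma without the block, SLC30A1 passed in only 2 of 15 fits that dropped a library or donor. One lacked the PF library of donor 3 (log2 fold change 0.99, limma adjusted p = 0.0383). The other lacked the PF + IL-1β library of donor 5 (0.98, limma adjusted p = 0.0486). SLC30A1 rose least when donor 4 was dropped, by 0.51 on the log2 scale (limma adjusted p = 0.340).

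SLC30A4 encodes ZnT4, which moves zinc into endosomes and lysosomes. Its log2 expression in donors 1 to 5 was 11.67, 11.40, 11.41, 11.19 and 11.37 in PF and 11.63, 11.55, 11.47, 12.01 and 11.58 in PF + IL-1β. The groups overlapped, and donor 4 had both the lowest and the highest of the 10 values. The log2 fold change was 0.24 (standard error 0.12, 95% confidence interval -0.02 to 0.50, adjusted p = 0.206 from limma, and 0.219 with the replicate block). SLC30A2, whose product ZnT2 fills secretory vesicles and is best known from the mammary gland, had 4 estimated reads in donor 5 in PF, 2 in donor 4 and 2 in donor 5 in PF + IL-1β, and 0 in the other 7 libraries. At this depth a difference in SLC30A2 was not detectable.

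**Figure D1:**
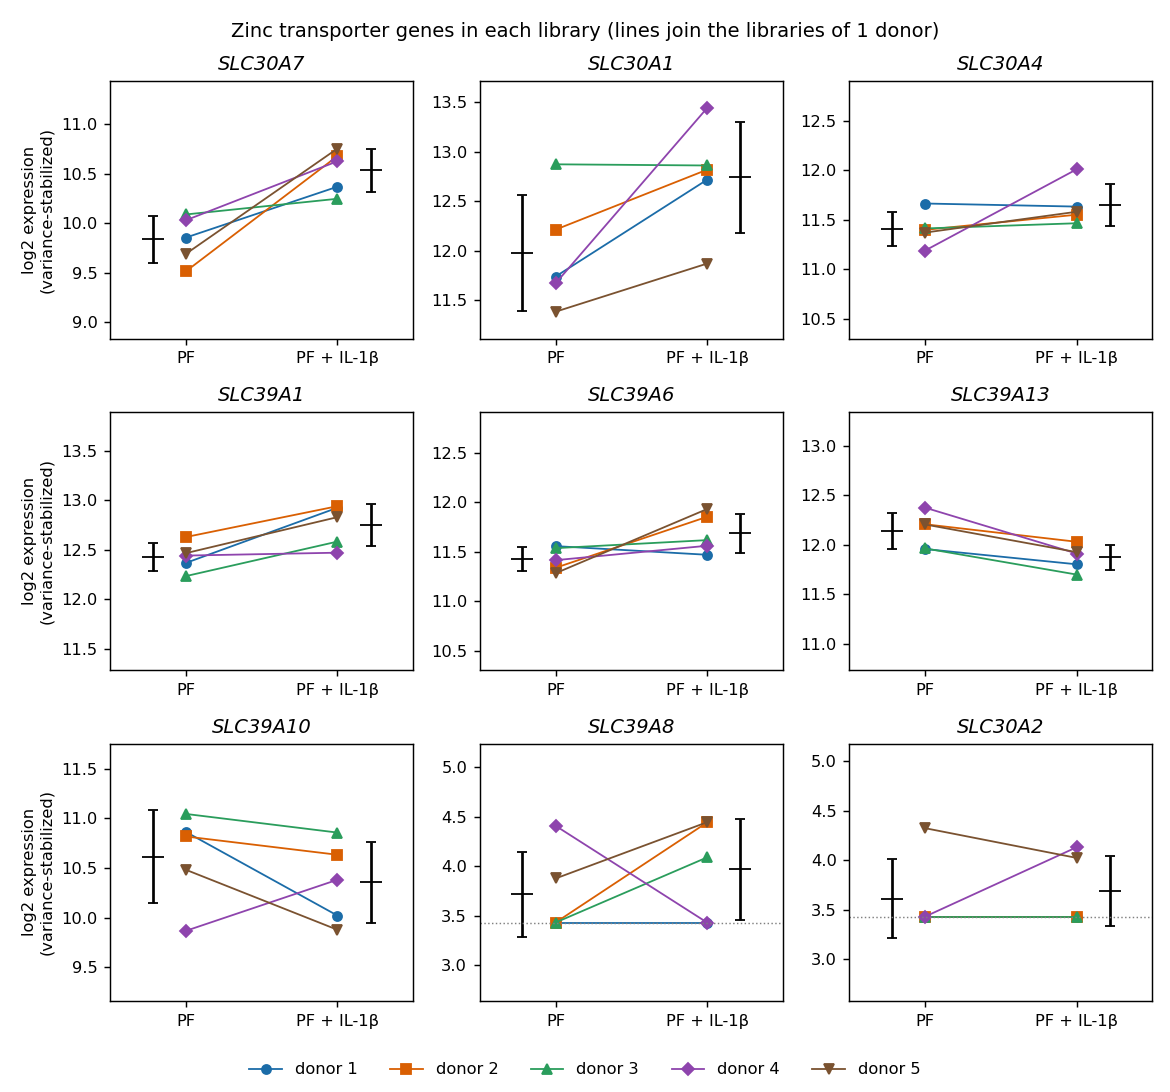
Variance-stabilized log2 expression (y axis, each panel spanning the same number of log2 units) of 9 zinc transporter genes in the PF and the PF + IL-1β groups (x axis). Each line joins the 2 libraries of 1 donor, black bars give the mean ± SD of 5 libraries and the dotted line is the value of 0 reads (3.433); all 5 lines rise for SLC30A7 and SLC39A1, all 5 fall for SLC39A13, and SLC39A8 and SLC30A2 lie at or near 0 reads.

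Among the importers, SLC39A1 encodes ZIP1, a widely expressed importer of the plasma membrane. In donors 1 to 5 its log2 expression was 12.37, 12.63, 12.23, 12.44 and 12.47 in PF and 12.92, 12.94, 12.58, 12.47 and 12.83 in PF + IL-1β. It was higher in 5 of 5 donors, although by only 0.03 in donor 4, and the groups overlapped. The means were 12.43 ± 0.14 (SD, n = 5) and 12.75 ± 0.21 (SD, n = 5), and the log2 fold change was 0.32 or 1.25-fold (standard error 0.12, 95% confidence interval 0.07 to 0.58). The difference did not pass without the donor term (adjusted p = 0.0875 from limma) and did with the replicate block (adjusted p = 0.0456). In limma without the block, SLC39A1 passed in only 1 of 15 fits that dropped a library or donor. This fit lacked the PF + IL-1β library of donor 4, which had the smallest increase (log2 fold change 0.39, limma adjusted p = 0.0340). SLC39A1 rose least when donor 1 was dropped, by 0.26 on the log2 scale (limma adjusted p = 0.291).

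SLC39A13 encodes ZIP13, which releases zinc from vesicles and the early secretory pathway and is needed for normal collagen-rich tissue. In donors 1 to 5 its log2 expression was 11.96, 12.21, 11.96, 12.37 and 12.20 in PF and 11.80, 12.03, 11.70, 11.91 and 11.92 in PF + IL-1β. It was lower with IL-1β in 5 of 5 donors, with differences between -0.46 in donor 4 and -0.15 in donor 1, and the groups overlapped. The means were 12.14 ± 0.18 (SD, n = 5) and 11.87 ± 0.13 (SD, n = 5), and the log2 fold change was -0.27 (standard error 0.10, 95% confidence interval -0.49 to -0.04). This did not pass without the donor term (adjusted p = 0.109 from limma) and was at the threshold with the replicate block (adjusted p = 0.0493). Of the 4 genes that passed with the block, it was the only one that was lower.

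SLC39A6 and SLC39A10 encode ZIP6 and ZIP10, related importers that are known to work together as a complex at the plasma membrane. SLC39A6 was at 11.56, 11.34, 11.54, 11.42 and 11.28 in donors 1 to 5 in PF and at 11.47, 11.85, 11.62, 11.56 and 11.93 in PF + IL-1β. Donor 1 was the exception among values otherwise higher with IL-1β. The log2 fold change was 0.26 (standard error 0.11, 95% confidence interval 0.03 to 0.49, adjusted p = 0.128 from limma, and 0.165 with the replicate block). SLC39A10 was at 10.86, 10.82, 11.05, 9.87 and 10.48 in PF and at 10.02, 10.63, 10.86, 10.38 and 9.88 in PF + IL-1β. It was lower in 4 donors and higher in donor 4, which had the lowest of all 10 values without IL-1β. Its log2 fold change was -0.26 (standard error 0.24, 95% confidence interval -0.80 to 0.27, adjusted p = 0.526 from limma, and 0.343 with the replicate block), so neither gene passed in either fit.

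SLC39A8 encodes ZIP8, an importer of zinc and manganese known as a target of NF-κB in immune and epithelial cells. In donors 1 to 5 it had 0, 0, 0, 5 and 1 estimated reads in PF and 0, 5, 2, 0 and 5 in PF + IL-1β. Reads were thus present in 2 libraries without IL-1β and in 3 with it, and donor 4 had them only without. The log2 expression was 3.72 ± 0.43 (SD, n = 5) and 3.97 ± 0.51 (SD, n = 5), with a log2 fold change of 0.25 (95% confidence interval -0.36 to 0.86, adjusted p = 0.600 from limma, and 0.576 with the replicate block). With at most 5 reads per library a difference was not detectable, and variance-stabilized values understate changes this close to 0 reads (log2 fold change 0.91 on the log2(normalized count + 0.5) scale). SLC39A8 was just above the filter on low values, with reads in 5 of the 10 libraries.

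**Figure D2:**
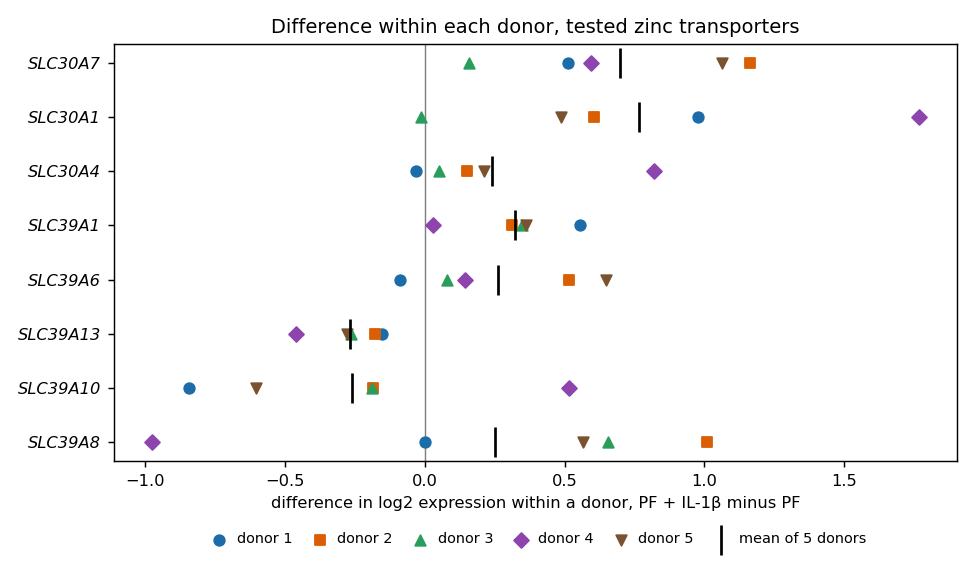
Difference in log2 expression between the 2 libraries of each donor (x axis, PF + IL-1β minus PF) for the 8 tested zinc transporters (y axis). Symbols stand for donors and black bars for the mean of 5 donors; SLC30A7 lies above 0 in all donors (0.16 to 1.16), SLC39A13 below 0 in all (-0.46 to -0.15), and SLC30A1 ranges from -0.01 to 1.77.

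The differences varied in size between donors. Donor 4 had the largest increase of SLC30A1 (1.77) and of SLC30A4 (0.82), the smallest increase of SLC39A1 (0.03), the largest decrease of SLC39A13 and the only increase of SLC39A10 (0.52). Donor 3 had the smallest differences of SLC30A7 (0.16) and SLC30A1 (-0.01). Donors 2 and 5 had the largest increases of SLC30A7, at 1.16 and 1.06, and also of SLC39A6, at 0.51 and 0.65. No test was made of these differences between donors, since each donor had 1 library per group.

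Of the other ZIP and ZnT genes and the zinc transporter TMEM163, 15 in all, 11 were tested, and 0 were differentially expressed by limma without or with the replicate block. Over all tested genes these shares were 6.68% and 8.26%. None of the 11 (0) passed an adjusted p below 0.05 without the block, against 15.5% of all tested genes, and 1 passed with the block, against 22.2%. At an unadjusted p below 0.05 there was 1 of 11, against 29.7%. Their median log2 fold change was 0.11. The gene with the smallest adjusted p was SLC39A4, which encodes ZIP4, the zinc importer of the intestine. It was at 5.75, 5.34, 5.14, 5.56 and 6.16 in donors 1 to 5 in PF and at 7.04, 6.29, 6.02, 5.77 and 6.81 in PF + IL-1β. It was higher in 5 of 5 donors, and the groups overlapped. The log2 fold change of 0.80 (standard error 0.29) did not pass without the donor term (adjusted p = 0.0905 from limma) and passed with the replicate block (adjusted p = 0.0255), on 13 to 89 estimated reads per library. On the log2(normalized count + 1) scale, where low values are compressed less, the log2 fold change was 1.11 (adjusted p = 0.0929 from limma). With the replicate block on that scale the adjusted p was 0.0281 from limma, so there SLC39A4 also reached the minimum fold change. SLC30A5 and SLC30A6, which encode the ZnT5 and ZnT6 subunits of the other zinc transporter of the early secretory pathway, had log2 fold changes of 0.10 (95% confidence interval -0.09 to 0.29) and 0.21 (-0.04 to 0.45), beside 0.70 (0.39 to 1.00) for SLC30A7. SLC39A7, which encodes ZIP7 of the endoplasmic reticulum and Golgi, had a log2 fold change of 0.12 (-0.18 to 0.41). These 3 genes were set beside SLC30A7 after the values had been seen, and whether they differ from it was not tested. SLC30A8 and TMEM163 were at 0 reads in all 10 libraries.

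**Figure D3:**
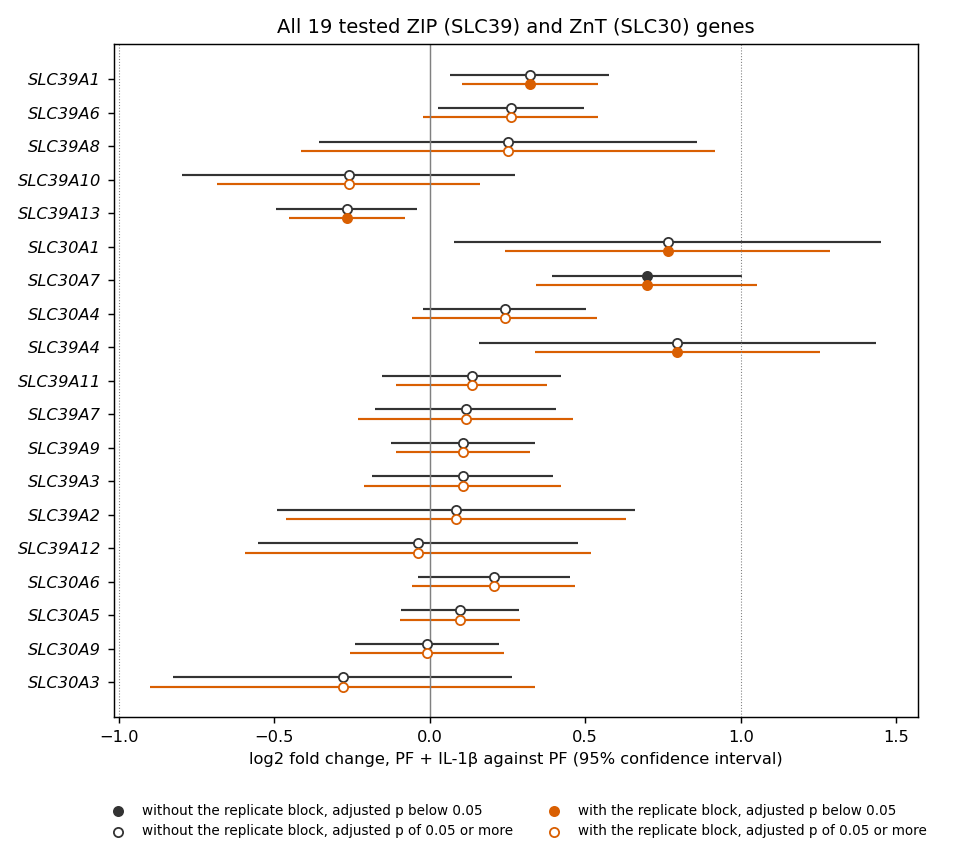
Log2 fold change of all 19 tested ZIP and ZnT genes (x axis, PF + IL-1β against PF, with 95% confidence intervals from limma), in the fit without a donor term (black) and with the replicate block (orange). The upper 8 rows are the named zinc transporters, filled points have an adjusted p below 0.05 and dotted lines mark a log2 fold change of -1 and 1; no point lies past them, and SLC30A7 is the only filled black point.

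Zinc in the cytosol is buffered by metallothioneins, small cysteine-rich proteins, and sensed by MTF1. None of the 13 metallothionein symbols searched had a row in the table (0), so metallothioneins were not analysed here. MTF1 was at 10.02 ± 0.23 (SD, n = 5) and 9.91 ± 0.21 (SD, n = 5), with a log2 fold change of -0.11 (95% confidence interval -0.41 to 0.19, adjusted p = 0.660 from limma). The zinc-binding S100A12, a calcium-regulated protein that withholds metals from microbes, had 1 to 27 estimated reads in PF and 101 to 297 in PF + IL-1β. Its log2 fold change was 3.10 (standard error 0.39, adjusted p = 6.91e-04 from limma), and it was higher in 5 of 5 donors with no overlap of the groups. On the log2(normalized count + 0.5) scale, where low values are compressed less, the log2 fold change was 4.93. S100A8 and S100A9 each had reads in 4 of the 5 libraries with IL-1β and 0 in the others, and were not tested. These were at most 2 estimated reads per library for S100A8 and at most 5 for S100A9, too few for a comparison.

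ZIP8 and ZIP14 also carry iron and manganese, and so genes of iron and copper handling were described beside the zinc transporters. Of 21 listed genes 19 were tested, of which 6 were differentially expressed, 5 of them higher in PF + IL-1β and 1 lower, against 6.68% of all tested genes. With the replicate block 8 were, 7 higher and 1 lower, the additional genes being those of the transferrin receptor, TFRC, and of the ferritin heavy chain, FTH1, against 8.26% of all tested genes. At an adjusted p below 0.05 alone, 6 of the 19 were higher and 3 lower, against 15.5% of all tested genes in either direction, and with the replicate block 7 were higher and 4 lower, against 22.2%. ATP7A (log2 fold change 0.42) was among those higher without the block (adjusted p = 0.0455 from limma) but did not pass with it (adjusted p = 0.0670). The iron importer gene SLC11A2 was at 9.62, 9.57, 9.97, 10.25 and 9.76 in donors 1 to 5 in PF and at 11.32, 11.59, 11.25, 12.26 and 11.48 in PF + IL-1β, with no overlap of the groups (log2 fold change 1.75, adjusted p = 3.86e-04 from limma). CP, the gene of the ferroxidase ceruloplasmin, rose by 2.38, SLC11A1, an iron and manganese transporter of phagosomes, by 2.05, the ferritin light chain gene FTL by 1.42, and the copper chaperone gene ATOX1 by 1.14 on the log2 scale. The metalloreductase gene STEAP2 was lower, with a log2 fold change of -1.04. The related genes STEAP1 (-0.99, adjusted p = 0.00181 from limma) and STEAP3 (-0.71, adjusted p = 0.0129) were also lower, each in 5 of 5 donors with no overlap of the groups, but stayed within the minimum fold change. Ferritin genes have many similar copies between which reads can be shared, so FTL and FTH1 are less certain. SLC11A1 no longer passed without donor 1, 2 or 5, or without the library of donor 2 with IL-1β (adjusted p between 0.0543 and 0.0868 from limma), with log2 fold changes between 1.86 and 2.08 in these fits. It was higher in 5 of 5 donors, by 1.75 to 2.36, and with the replicate block its adjusted p was 2.90e-04. STEAP2 was within a log2 fold change of 1 without the library of donor 4 in PF (-0.97), that of donor 5 with IL-1β (-0.98) or both of donor 5 (-0.99). The ferroportin gene SLC40A1, whose product exports iron, was lower only with the replicate block at an adjusted p below 0.05, by 0.93 on the log2 scale and in 5 of 5 donors. TFRC, FTH1, ATP7A, STEAP1, STEAP3 and SLC40A1 were named after their values had been seen. The list as a whole had a median log2 fold change of 0.17.

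**Figure D4:**
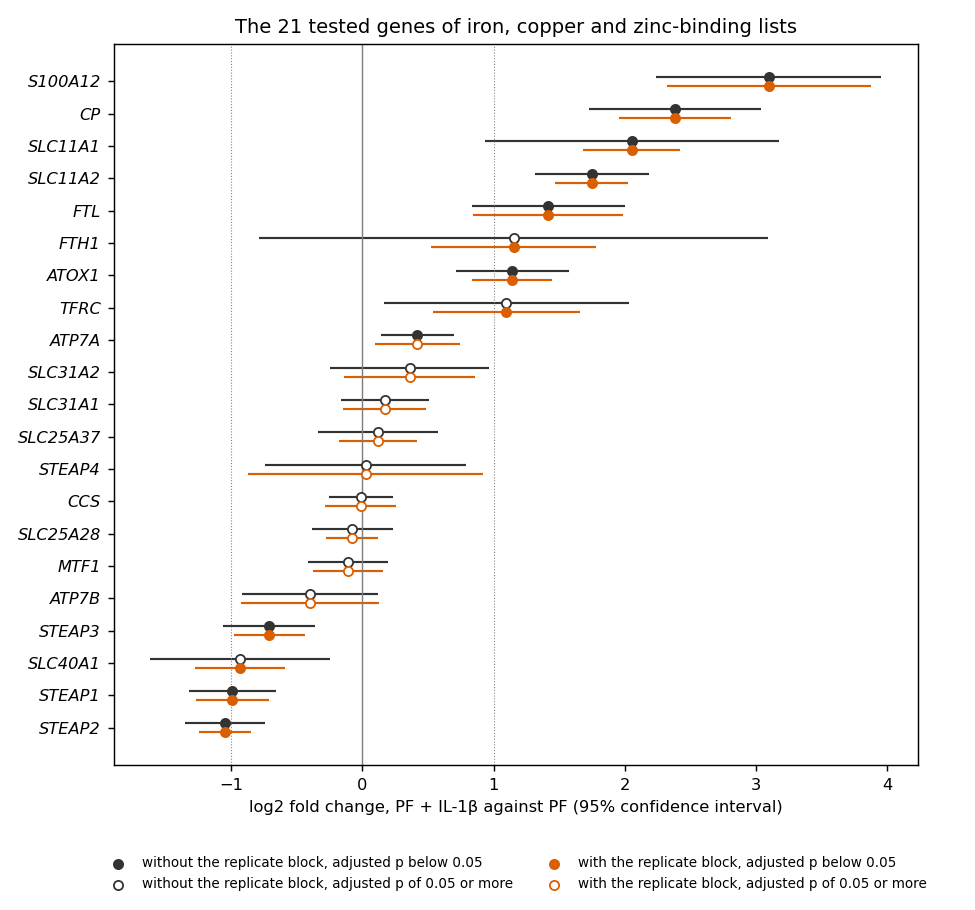
Log2 fold change of 21 tested genes that handle iron or copper or bind or sense zinc (x axis, PF + IL-1β against PF, with 95% confidence intervals from limma), without (black) and with (orange) the replicate block. Filled points have an adjusted p below 0.05 and dotted lines mark a log2 fold change of -1 and 1; S100A12, CP, SLC11A1, SLC11A2, FTL and ATOX1 lie above 1 in both fits with filled points.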

How the data were processed

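Salmon (version 1.8) was run by the authors against EquCab3.0 transcripts with GC-bias correction, followed by tximport. What the authors deposited are log2 values per gene, variance-stabilized and already normalized across libraries. The transformation is not named in the sources used here and was inferred from a floor of 3.433 common to all 10 libraries. All 10 columns were used, and the table holds no counts. Normalized counts came from its inversion, and the size of 1 read from the steps between low values. Between 65.9% and 83.7% of low values per library lay within 0.15 of a whole read, so reads are estimates.

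The 17992 genes above that floor in 5 or more libraries entered the limma fit (limma version 3.58.1 in R 4.3.3), which used a mean-variance trend and no donor term, as the study names none, and again with the donor as a replicate block. All adjusted p-values are from limma, two-sided, with Benjamini-Hochberg adjustment over all tested genes. The replicate number stands for the tendon cell code in the labels, which is shared between the groups, so it pairs the libraries. Each code was taken as a separate horse, since the study describes 5 biological replicates. Deviations from the group means were shared within donors (correlation across genes 0.367 to 0.506 for 5 pairs, mean -0.107 for the 20 others). The mean of the 20 others follows largely from centring each group on its own mean, so it is no separate evidence of pairing. The fit without the replicate block was tested on simulated counts, without differences between donors and without genes near 0 reads. The fit with the block was not tested in this way. Alternatives were other filters, scales, normalizations, variance models and call rules, and leaving out each library or donor. All 10 zinc transporters are described, and of the other lists the differentially expressed genes and the gene with the smallest adjusted p. The genes and lists were chosen with earlier results of these data known. No sequence or position is given, since the gene table available is of another horse assembly.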

Additional observations from a re-analysis of the deposited data

Results flagged for a closer look

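In 3 of 34 groups of 5 libraries examined, 1 library stood far from the other 4, where chance gives about 1.7. SLC30A2 was at 4.32 in the PF library of donor 5, on 4 estimated reads, and at 0 reads in the other 4. With 4 equal values any read in the fifth library gives this flag, so it cannot be set against the number expected by chance. S100A12 was at 8.79 in the PF + IL-1β library of donor 4, on 297 estimated reads, against 7.08 to 7.52 in the others. ATOX1 was at 10.84 in the PF + IL-1β library of donor 3, against 11.44 to 11.65 in the others. None of the 8 tested zinc transporters was among these 3.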

How the results depend on the processing

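Of 406 log2 fold changes of 16 named genes under the alternatives, 0 changed direction, 387 stayed on their side of the threshold, 8 lost it and 11 gained it. SLC30A7 kept an adjusted p below 0.05 under 25 of 26 alternatives, with log2 fold changes from 0.58 to 0.83, including 14 of 15 fits that dropped a library or donor. No zinc transporter (0) reached the minimum fold change in any alternative that kept it. Without it there was 1, and 4 with the replicate block. Counted at an adjusted p below 0.05 alone, an alternative chosen after the data were seen, the number was 1, and 4 with the replicate block, 4 with the block after back-transformation to log2(normalized count + 1), 2 with array weights, and 0 to 2 when a library or donor was left out. With the replicate block and a donor left out it was 0 to 2. Leaving out a donor also removes libraries, and the share of all tested genes passing in these block fits was not counted. Of the other ZIP and ZnT genes, 1 (SLC39A4) was counted with the replicate block after back-transformation and 1 with the block and no minimum fold change. Of the iron and copper genes 11 were with the block and no minimum fold change. Over all tested genes, 1809 were differentially expressed with the block on back-transformed values, 2782 with no minimum fold change and 3996 with the block and no minimum fold change, against 1202, and 747 to 1410 when a library or donor was left out. The causes were not tested. With the replicate block, 3 of the 16 named genes changed sides (SLC30A1, SLC39A1 and SLC39A13). For genes other than the zinc transporters named at the outset, SLC39A4 included, the minimum fold change was part of the threshold. SLC39A8 was tested in 6 of the 15 fits that dropped libraries. For SLC39A8 and SLC30A2 depth limits any comparison.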
